A study of Homo sapiens with 9 samples.

Results

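The zinc finger genes described here are the 263 genes of chromosome 19 whose symbol is ZNF followed by a number and at most 1 letter, of 60708 genes in the files. They lie between the start of ZNF554 and the end of ZNF446 (chr19:2819868-58481230, GRCh38), and 246 of them are annotated as protein coding and 17 are not. RNA from untreated cells was sequenced in 9 libraries: 3 labelled WT, for the breast cancer line MDA-MB-231, and 3 each labelled with the clones CS16 and CS19. The study compared them to learn what depends on SNAI1, a repressor of epithelial genes that itself carries zinc fingers.

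MDA-MB-231 is an established human line of triple-negative, basal breast cancer. The WT group was the parental line. CS16 and CS19 were the study's knockout clones, made with CRISPR/Cas9, 3 guide plasmids against SNAI1 and a repair template, and selection with puromycin. Each was a single clone of edited cells, so 1 clone stands for 1 editing event, and both together gave the 6 libraries called SNAI1-KO below. All groups grew in the same medium without treatment. The labels do not say whether replicates came from separate cultures, so p-values measure the spread between these libraries, which may be technical.

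Most zinc finger genes of chromosome 19 encode proteins with a row of C2H2 zinc fingers, each a small fold around a zinc ion that reads a few bases of DNA, behind a KRAB domain. KRAB recruits TRIM28 (KAP1) and through it SETDB1 and heterochromatin proteins, which silence the bound DNA, and many of these proteins bind transposable elements. The genes arose by repeated duplication and therefore stand in clusters of similar sequence, in 19p13.2, in 19p12 beside the centromere and along 19q13.

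The promoters of 5 members show the contrast that the results turn on, since 2 of the 3 related genes of 19p12 fell to almost nothing in the clones while the other rose, and ZNF544 and ZNF229 moved in opposite directions with many CpG dinucleotides each. The 250 bases before the start of each gene are given 5′ to 3′ on the strand of the gene, from RefSeq on GRCh38.p14, with every CpG in capitals. ZNF91 (chr19:23395472-23395721, minus strand), ZNF43 (chr19:21836183-21836432, minus strand) and ZNF714 (chr19:21081953-21082202, plus strand) lie in 19p12, ZNF229 (chr19:44448473-44448722, minus strand) in 19q13.31 and ZNF544 (chr19:58228664-58228913, plus strand) in 19q13.43.
ZNF91: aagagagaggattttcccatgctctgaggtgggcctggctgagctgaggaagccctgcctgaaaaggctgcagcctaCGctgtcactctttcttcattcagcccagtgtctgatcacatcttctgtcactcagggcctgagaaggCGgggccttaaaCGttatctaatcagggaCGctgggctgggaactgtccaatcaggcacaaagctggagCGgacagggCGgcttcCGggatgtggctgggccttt
ZNF43: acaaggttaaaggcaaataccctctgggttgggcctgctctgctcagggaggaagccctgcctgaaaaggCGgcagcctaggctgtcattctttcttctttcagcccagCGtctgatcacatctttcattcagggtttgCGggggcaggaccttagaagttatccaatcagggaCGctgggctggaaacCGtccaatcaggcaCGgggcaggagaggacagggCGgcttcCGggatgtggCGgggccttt
ZNF714: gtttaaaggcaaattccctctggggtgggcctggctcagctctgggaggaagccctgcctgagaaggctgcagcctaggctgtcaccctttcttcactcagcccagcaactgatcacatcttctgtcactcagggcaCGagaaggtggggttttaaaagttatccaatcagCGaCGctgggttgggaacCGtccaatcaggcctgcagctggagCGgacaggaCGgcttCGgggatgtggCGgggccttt
ZNF229: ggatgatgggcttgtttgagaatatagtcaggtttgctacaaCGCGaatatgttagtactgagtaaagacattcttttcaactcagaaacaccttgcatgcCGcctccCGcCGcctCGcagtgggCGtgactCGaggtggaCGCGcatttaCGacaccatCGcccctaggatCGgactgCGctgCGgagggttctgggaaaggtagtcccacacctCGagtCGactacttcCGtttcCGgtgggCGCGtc
ZNF544: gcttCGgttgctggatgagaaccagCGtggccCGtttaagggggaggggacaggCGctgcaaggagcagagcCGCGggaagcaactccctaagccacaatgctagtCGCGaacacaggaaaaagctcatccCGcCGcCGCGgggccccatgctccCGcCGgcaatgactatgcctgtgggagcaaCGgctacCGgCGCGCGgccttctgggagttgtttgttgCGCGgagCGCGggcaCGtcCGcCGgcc
In a global alignment, ZNF91 and ZNF43 shared 80.6% of aligned positions, ZNF91 and ZNF714 82.9%, and ZNF43 and ZNF714 82.3%. The pairs between these 3 genes and ZNF229 or ZNF544 shared 46.2 to 50.5%. These stretches held 7, 9 and 8 CpG in ZNF91, ZNF43 and ZNF714, 21 in ZNF229 and 26 in ZNF544.

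The libraries held between 19527195 and 28627777 counted read pairs, and the 263 genes took between 0.331% and 0.467% of them. Levels below are CPM, counts scaled to a common normalized library total, on which 3 counts, the most that is treated as background, equal 0.0984 to 0.172 CPM. In the WT libraries 231 to 232 members had more than 3 counts, against 209 to 212 in CS16 and 207 to 212 in CS19. No count was found in any library for 10 members. The counts carry no molecular identifiers, so intervals cover counting error only.

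Several measurements of the whole libraries stand beside every result. WT-2 differed from WT-1 and WT-3 far more than those did from each other (chi-square per degree of freedom over genes 187.9 and 230.2, against 14.6). SNAI1 itself had 16, 38 and 21 counts in WT, 26, 40 and 49 in CS16 and 57, 94 and 94 in CS19, so over the whole gene it was not lower in the libraries labelled as knockout (log2 fold change 0.89 ± 0.42 SE, adjusted p = 0.0838, and 1.32 with adjusted p = 0.031 for CS19 alone), and whole-gene counts do not separate deleted from remaining exons. Of 12 markers of basal mesenchymal cells, the line's type, all fell, from a summed 11416 to 14206 CPM in WT to 361.1 to 429.3 in the clones, with CD44 and S100A6 among those at 3 counts or fewer there. Of 10 luminal mammary markers, 1 rose and 6 fell, and their sum was 1555 to 2341 CPM in WT and 131.1 to 202.2 in the clones. PGR was at 3 counts or fewer in every library of all groups, and KRT19 in every clone library. FOXA1 was at that level in every WT library but not throughout either clone. The sum of 10 embryonic kidney markers was 71.1 to 115.1 CPM in WT, with PAX2, LHX1, SALL1, HOXD10 and LIN28B at 3 counts or fewer, and 292.2 to 400.8 in the clones, with PAX8 and OSR1 at that level. That of 6 haematopoietic markers was low throughout, at 0.874 to 1.32 CPM in WT and 2.43 to 3.34 in the clones. Only 1 of the 6 had enough counts to test, and it was higher in the clones (log2 fold change 4.41). CDKN2A, CDKN2B and MTAP, which the line is known to have lost, had 0 counts in WT and a summed 164.4 to 182.2 CPM in the clones. The part of any of these in the results below was not tested. A lower level in these bulk RNA samples can be fewer cells with the transcript or less of it per cell, which cannot be told apart.

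The first comparison asked how the genes differ between both clones and WT. Of the 235 members with enough counts to test, 95 were lower and 46 higher in the 6 SNAI1-KO libraries (adjusted p below 0.05 in the quasi-likelihood test of edgeR, with the Benjamini-Hochberg procedure over all genes, the test used throughout). Over all 19631 genes tested the shares were 32.6% lower and 31.1% higher. A change of 2 or more on the log2 scale was further demanded for what is named a call below, and by that 49 members were lower and 9 higher, against a background of 14.3% and 12.6% (26.9% in either direction). The other 28 members were not tested.

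The median log2 fold change of the tested members was -0.27, against -0.00 over all genes. For the other genes of chromosome 19 it was -0.45 over 1030 tested (414 lower, 174 higher), and for the ZNF-numbered genes of other chromosomes it was 0.29 over 248 (55 lower, 99 higher). Leaving out WT-2 gave -0.29 for the members but -0.04 for the other genes of chromosome 19, and 47 members called lower and 8 higher. The lower shift of the neighbouring genes on the chromosome therefore rested on that library, and that of the members did not. In 83 members every SNAI1-KO library lay below every WT library, and in 45 every one lay above, where the background shares were 28.7% and 29.7%.

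Each clone was also set against the same WT libraries, which both comparisons share. CS16 had 95 members lower and 27 higher, with a median of -0.38, where 28.6% of all genes were lower and 27% higher (55.6% in either direction). Of these 49 were called lower and 7 higher (background 15.3% and 11.8%, or 27.1% in either direction). CS19 had 72 lower and 40 higher, with a median of -0.13, where the shares of all genes were 26.6% and 26.3% (52.9% together). Of these 46 were called lower and 9 higher (background 14.4% and 12%, or 26.4% together). Without WT-2 the members lower and higher numbered 128 and 45 for CS16 and 102 and 63 for CS19.

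By arm and cluster, the calls were unevenly placed, among the members and among the other genes of the same regions. In 19p13, 25 of 50 tested members were lower and 6 higher (median -0.47), beside 198 lower and 69 higher of 480 other genes (-0.51). In 19p12, 13 of 24 were lower and 5 higher, with the lowest median of the 3 clusters (-1.44), where 14 of 20 other genes were lower and 1 higher (11 called lower, median -6.43). In 19q13, 57 of 160 were lower and 34 higher (median -0.18), beside 197 lower and 99 higher of 516 other genes (-0.35). This cluster held 8 of the 9 members called higher. The ninth was ZNF536, alone in 19q12. The values of the other genes include WT-2, without which their median over all of chromosome 19 was -0.04.

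Band 19p13.2 held 42 members, from ZNF557 to ZNF564, and 14 of the 38 tested were called lower and none higher. Of these, 10 followed each other without a tested member between them that was not called, from ZNF439 to ZNF625 (chr19:11848726-12156734). All 5 other tested genes within that stretch were called lower too. In ZNF69 the level was 22.5, 26.6 and 18.5 CPM in WT-1 to WT-3, 0, 0 and 0 in CS16 and 0, 0.0434 and 0.0656 in CS19, so the clones had 3 counts in all and the WT level was 1059-fold (95% counting interval 361.6 to 5142) higher. ZNF439, at the start of the stretch, had 23.8, 21.2 and 23 CPM in WT-1 to WT-3, 0.0491, 0.0478 and 0.0398 in CS16 and 0.0911, 0.347 and 0.328 in CS19 (log2 fold change -7.11 ± 0.44 SE, adjusted p = 7.56e-08). WT and clone libraries did not overlap in either gene.

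Other members of the stretch had no count at all in the clones. ZNF788P, a transcribed pseudogene, had 6.18, 4.81 and 6.12 CPM in WT-1 to WT-3 and 0 in each of the 6 libraries of the clones, a level at least 271.4-fold higher in WT against a floor of 3 counts over the 6 libraries. The same bound was 209.3-fold for ZNF844, 78.6-fold for ZNF878 and 57.9-fold for ZNF625, the last member of the stretch. ZNF763 kept 2 counts in 1 clone library, a WT level 88.1-fold (95% counting interval 23.5 to 741.7) higher. Not every gene of the stretch was silent, since ZNF700 still had 25.3, 18.9 and 20.2 CPM in WT-1 to WT-3, 3.54, 3.49 and 4.18 in CS16 and 3.46, 4.21 and 3.7 in CS19 (-2.51 ± 0.16 SE, adjusted p = 1.07e-07).

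The next neighbour after the stretch, ZNF136, had 15.7, 8.29 and 17.6 CPM in WT-1 to WT-3, 9.57, 11.7 and 10.4 in CS16 and 12.7, 11.3 and 12.8 in CS19, with groups that overlapped (log2 fold change -0.28 ± 0.22 SE, adjusted p = 0.289), but without WT-2 it was lower (-0.55, adjusted p = 0.00452). Beyond it 3 more neighbours were lower (chr19:12224686-12365905), ZNF44 at -1.16 and, as calls, ZNF563 at -2.61 and ZNF442 at -3.41 on the log2 scale. Before the start of the stretch, ZNF440 was lower (-0.67 on the log2 scale), ZNF491 was again without a count in the clones (5.04, 3.6 and 3.96 CPM in WT-1 to WT-3 and 0 in each of the 6 libraries of the clones, at least 200.2-fold higher in WT), and the next gene outward, ZNF441, did not pass the test (-0.15 ± 0.27 SE, adjusted p = 0.642). Far from the stretch but in the same band, ZNF558 had 34, 20.8 and 35.4 CPM in WT-1 to WT-3 and 0 in each of the 6 libraries of the clones, a WT level at least 1440-fold higher.

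**Figure D1:**
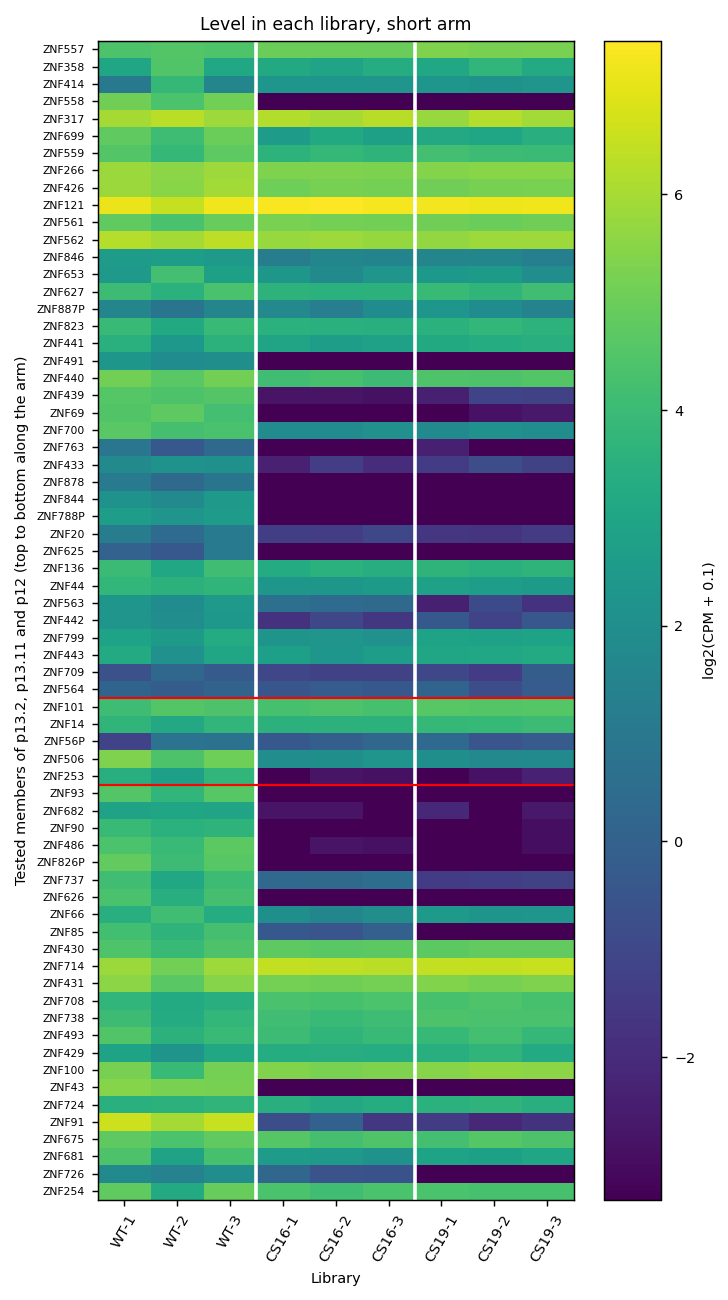
Level in each library, as log2(CPM + 0.1), of the tested members of p13.2, p13.11 and p12 in order along the arm, with white lines between groups and red lines between bands. The 2 dark blocks in the clone columns are the stretches from ZNF439 to ZNF625 and from ZNF506 to ZNF626. Of the members from ZNF430 to ZNF100 none passed the test as lower in the clones with all libraries in the fit.

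The second stretch lay across the border of 19p13.11 and 19p12, from ZNF506 to ZNF626 (chr19:19785839-20661596), with 9 neighbouring members called lower and all 5 other tested genes within it called lower as well. ZNF93, a KRAB protein known to silence LINE-1 elements, had 23.2, 13.6 and 24.6 CPM in WT-1 to WT-3 and 0 in each of the 6 libraries of the clones, at least 979.6-fold higher in WT. Its neighbours without a count in the clones were ZNF826P (at least 1105-fold) and ZNF626 (at least 795.1-fold). ZNF90 and ZNF486 kept 1 and 3 counts in the clones. ZNF90 had 15, 11.5 and 12.8 CPM in WT-1 to WT-3, 0, 0 and 0 in CS16 and 0, 0 and 0.0328 in CS19, a WT level 1869-fold (95% counting interval 334.4 to 73917) higher, and ZNF486 had 20.5, 15.3 and 26.4 CPM in WT-1 to WT-3, 0, 0.0478 and 0.0398 in CS16 and 0, 0 and 0.0328 in CS19, 989.5-fold (95% counting interval 337.8 to 4805) higher.

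ZNF253 and ZNF682, with 6 and 7 counts over the clones, were 242.8-fold (95% counting interval 110.9 to 664.4) and 153.9-fold (95% counting interval 74.1 to 385) higher in WT. All of these genes were above 3 counts in each WT library and at 3 counts or fewer in each clone library. Across chromosome 19, 22 members had that pattern, 8 in p13.2 and 7 in p12, where 2.98% of all 41910 genes with a count had it. Without WT-2 the members called lower again numbered 14 in p13.2 and 11 in p12.

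Beyond the second stretch, 19p12 was mixed gene by gene. ZNF43 had 43.9, 38.4 and 37.7 CPM in WT-1 to WT-3 and 0 in each of the 6 libraries of the clones, a level at least 1896-fold higher in WT. ZNF91, which silences SVA elements, was the member with the highest WT level among those called lower in 19p12. It had 97, 62.2 and 91.4 CPM in WT-1 to WT-3, 0.491, 0.908 and 0.239 in CS16 and 0.273, 0.13 and 0.197 in CS19 (log2 fold change -7.84 ± 0.41 SE, adjusted p = 1.85e-08).

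Between and around them stood genes that did not pass the test as lower with all libraries in the fit. Part of this rested on WT-2. Without it, 16 of the 24 tested members of 19p12 were lower and 4 higher, against 13 and 5 with it. ZNF714, with a promoter as close to those of ZNF43 and ZNF91 as these are to each other, had 55.3, 35.4 and 58.5 CPM in WT-1 to WT-3, 86.6, 83.5 and 80.1 in CS16 and 87.4, 87.3 and 90.6 in CS19 and rose (0.79 ± 0.17 SE, adjusted p = 0.00137). ZNF708 rose as well, with 13.5, 9.44 and 10.5 CPM in WT-1 to WT-3, 20.0, 19.3 and 20.7 in CS16 and 19.6, 22 and 19.8 in CS19 (0.86 ± 0.16 SE, adjusted p = 0.000599), and so did ZNF430 (0.47) and ZNF429 (0.64). ZNF738 passed the test at 0.48 but not without WT-2 (0.30), without WT-3 or without any of 5 clone libraries in turn (largest adjusted p = 0.105). ZNF675 had 26.8, 20.8 and 27.6 CPM in WT-1 to WT-3, 24.1, 19.3 and 22.3 in CS16 and 18.5, 23.7 and 21.1 in CS19, and its groups overlapped (-0.22 ± 0.16 SE, adjusted p = 0.227). In ZNF708 and ZNF714 every clone library lay above every WT library. Another 12 members of 19p12 were at 3 counts or fewer in all 9 libraries, among them ZNF676, ZNF98 and ZNF99, of 24 such members in all.

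The shared promoter letters of these clusters were counted in the 300-base RefSeq windows (250 before to 50 after the start), which matched 216 of the 263 members by symbol. The 8 letters CCAATCAG, a form of the CCAAT box, or their reverse complement CTGATTGG, were chosen after the sequences above were read. They stood in 27 of 27 promoters of 19p12 and 19 of 36 of 19p13.2, against 26.4% of all member promoters and 4.16% of 27305 promoters. In 19p13.2, 11 of the 19 members with them were called lower and 0 rose, with 1 more lower under the fold cut-off and 7 not past the test. Of the 17 without them 1 was called lower, 7 were lower under the cut-off, 2 were higher, 5 did not pass the test and 2 were not tested. All 19 with the letters lie from ZNF627 to ZNF564, the end of the band that holds the stretch from ZNF439 to ZNF625. The letters were therefore not separated from position. In 19p12 all 27 carried them, and of these 10 were called lower, 2 were lower under the fold cut-off, 6 did not pass the test, 4 were higher and 5 were not tested. The 9 letters GGGGCCTTT (or AAAGGCCCC), also chosen from these sequences, occurred in 11 of the 27 promoters of 19p12, in no other member's and in 0.505% of all promoters. Those 11 comprised 5 genes called lower, such as ZNF43, 1 lower under the fold cut-off, 3 that did not pass the test and 2 that rose, ZNF714 and ZNF430. A match describes letters and not a bound site.

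The E-box that SNAI1 is known to bind (CAGGTG, or CACCTG on the other strand) stood in 14.8% of the member promoters (32 of 216) and in 20.6% of all promoters. It was found in 3 of 36 promoters of members called lower (8.33%), 0 of 8 of those called higher and 27 of 157 of those tested and not called (17.2%). Absence of the letters from these windows says nothing about sites elsewhere. CpG content was also uneven. Observed over expected CpG compares the CpG found with what the C and G content alone would give. Its median was 0.765 over member promoters and 0.580 over all promoters, 0.615 over the 36 of members called lower, 0.906 over the 8 called higher and 0.782 over the 157 not called. The 14 matched genes that were above 3 counts in each WT library and at 3 counts or fewer in the clones had a median of 0.459, or 11 CpG in the window against 20 for all members. Many of these genes share a cluster and its sequence, so they are not independent, and no test was made.

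In the other direction, the largest increases lay in 19q12, 19q13.12 and 19q13.31. ZNF536, a regulator of neuronal differentiation that carries no KRAB domain, had 0, 0.0572 and 0.0514 CPM in WT-1 to WT-3, 17.6, 15.6 and 17.1 in CS16 and 18.1, 18 and 16.4 in CS19. The clones held 2424 counts and WT 2, a level 488.3-fold (95% counting interval 135 to 4034) higher in the clones. ZNF229 had 0 CPM in each WT library, 0.491, 1.05 and 0.677 in CS16 and 2.28, 3.69 and 3.02 in CS19, at least 37.1-fold higher in the clones, and its neighbour ZNF285 had 0, 0.0572 and 0 CPM in WT-1 to WT-3, 1.87, 2.49 and 1.39 in CS16 and 5.05, 5.6 and 4.92 in CS19, 207.5-fold (95% counting interval 37.1 to 8211) higher. ZNF781, at low levels of 0.382 to 0.825 CPM in the clones, was 16.7-fold (95% counting interval 4.49 to 140.4) higher. These were the 4 members at 3 counts or fewer in every WT library and above that in every clone library, where the background is 3.18% of genes with a count.

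The remaining 5 members called higher were expressed in WT. ZNF793 in 19q13.12 had 0.346, 0.629 and 0.668 CPM in WT-1 to WT-3, 6.53, 6.69 and 6.46 in CS16 and 13, 9.77 and 13 in CS19 (log2 fold change 4.07 ± 0.40 SE, adjusted p = 3.95e-06). ZNF773 in 19q13.43 had 0.643, 1.14 and 0.823 CPM in WT-1 to WT-3, 7.61, 7.98 and 8.69 in CS16 and 10.2, 10.9 and 10.4 in CS19 (3.42 ± 0.26 SE, adjusted p = 4.99e-07). ZNF382, a KRAB repressor described as silenced by promoter methylation in several cancers, had 2.08, 2.46 and 2.88 CPM in WT-1 to WT-3, 15.5, 13.429 and 14.1 in CS16 and 24.6, 24.4 and 23.8 in CS19 (2.96 ± 0.30 SE, adjusted p = 4.25e-06). In each of these genes all 6 clone libraries lay above the 3 WT libraries. ZNF540 had 0.445, 0.343 and 0.823 CPM in WT-1 to WT-3, 3.34, 4.73 and 3.59 in CS16 and 3.87, 4.78 and 3.08 in CS19 (2.84 ± 0.33 SE, adjusted p = 1.52e-05), and ZNF582, whose promoter methylation is used as a tumour marker, had 1.04, 0.801 and 0.874 CPM in WT-1 to WT-3, 2.5, 2.77 and 2.19 in CS16 and 4.19, 5.82 and 5.31 in CS19 (2.06 ± 0.39 SE, adjusted p = 0.000664).

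In 19q13.12 as a whole, 10 of 27 tested members rose and 2 fell (median 0.34), and in 19q13.31 9 of 23 rose and 2 fell (0.38). These are 37% and 39.1% higher, against 31.1% of all genes, and of the other genes in these bands 8 of 53 and 3 of 21 rose and 16 and 9 fell. Without WT-2 the medians of the members were 0.14 and 0.14, with 10 higher and 4 lower, and 7 higher and 5 lower. The other genes were not split by band in that fit. All 4 tested members of 19p13.3, at the end of the short arm, rose, by 0.79 for ZNF555 (10.0, 5.43 and 10.1 CPM in WT-1 to WT-3, 12.4, 15.1 and 12.3 in CS16 and 16.7, 16.9 and 15.3 in CS19), 1.01 for ZNF554, 1.19 for ZNF77 and 1.37 for ZNF57 on the log2 scale.

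Towards the end of the long arm the members and their neighbouring genes fell more often than they rose. In 19q13.41, 14 of 30 tested were lower and 5 higher (median -0.41), in 19q13.42, 11 of 17 and 2 (-1.40), and in 19q13.43, 23 of 49 and 4 (-0.54). Among the other genes of these bands, 9 of 16 were lower and 1 higher in q13.41 (-1.04), 32 of 58 and 6 in q13.42 (-1.01), and 19 of 44 and 5 in q13.43 (-0.49). Leaving out WT-2 moved the medians of the members to -0.51, -0.47 and -0.29, so the size in q13.42 rested on that library. The other genes were not split by band without WT-2, and over all of chromosome 19 their median then moved from -0.45 to -0.04. Shorter stretches of neighbouring calls ran from ZNF610 to ZNF808 (chr19:52336243-52564464, 4 members) and from ZNF415 to ZNF818P (chr19:53107879-53214522, 4 members).

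ZNF702P, a pseudogene of q13.41, had the largest bound of any member, with 46.3, 23.6 and 53.1 CPM in WT-1 to WT-3 and 0 in each of the 6 libraries of the clones, at least 1972-fold higher in WT. In q13.42, ZNF818P and ZNF525 had no count in the clones either (at least 732.2-fold and 723.1-fold). ZNF415 had 12.6, 7.89 and 12.1 CPM in WT-1 to WT-3, 0.0491, 0 and 0 in CS16 and 0 in each CS19 library, with 1 count in the clones, and ZNF665 had 2, levels 1559-fold (95% counting interval 278.7 to 61662) and 363.6-fold (95% counting interval 99.8 to 3017) higher in WT. ZNF610 kept 3 counts and was 105.9-fold (95% counting interval 35.4 to 520.3) higher in WT. ZNF347 had 77.4, 49.4 and 81 CPM in WT-1 to WT-3, 0.54, 0.765 and 0.279 in CS16 and 1.27, 0.695 and 0.459 in CS19 and thus stayed measurable in every clone library (-6.70 ± 0.34 SE, adjusted p = 1.65e-08).

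In q13.43, ZNF544 had 61.3, 64.5 and 66.1 CPM in WT-1 to WT-3, 0.344, 0.382 and 0.598 in CS16 and 0.956, 0.912 and 0.623 in CS19 (-6.63 ± 0.27 SE, adjusted p = 2.55e-09). Within the same band, the pseudogene ZNF542P had 7.61, 7.04 and 9.51 CPM in WT-1 to WT-3, 0.0982, 0.0956 and 0.0797 in CS16 and 0.0911, 0.13 and 0.131 in CS19 (-6.18 ± 0.25 SE, adjusted p = 2.73e-09), and ZNF671, another gene known for promoter methylation in tumours, had 8.65, 11.7 and 10.1 CPM in WT-1 to WT-3, 0.0982, 0.0956 and 0.12 in CS16 and 0.137, 0.0434 and 0.262 in CS19 (-6.21 ± 0.33 SE, adjusted p = 2.22e-08). ZNF114 in q13.33 had 38.5, 45.4 and 44.6 CPM in WT-1 to WT-3, 1.82, 1.62 and 1.67 in CS16 and 1.78, 2.26 and 1.93 in CS19 (-4.53 ± 0.16 SE, adjusted p = 1.1e-09). The lowest WT library of each of these genes exceeded every clone library many times over.

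Leaving out WT-2 ended 4 of the 58 calls. In ZNF575 (-2.04 to -1.25), ZNF154 (-2.57 to -1.34) and ZNF582 (2.06 to 1.98) the log2 fold change then missed the cut-off of 2 but still passed the test, and in the fourth the test itself failed. ZNF865 had 1.78, 41.9 and 1.39 CPM in WT-1 to WT-3, 1.91, 2.39 and 2.47 in CS16 and 1.55, 2.78 and 1.51 in CS19, and its log2 fold change of -2.83 ± 0.81 (SE, adjusted p = 0.00942) became 0.40 (adjusted p = 0.265) without WT-2. The same library was at least 3 times the higher of the other two in ZNF414, ZNF296, ZNF628, ZNF579, ZNF444, ZNF154, ZNF497 and ZNF837 too, a rule set after the values were seen. The median GC content of the exons of these 9 genes was 64.5%, against 43.2% over tested members. Among the 235 tested members WT-2 was the lowest WT library in 147 and the highest in 68, and the median exon GC content was 42.1% in the first and 48.3% in the second. Whether GC content or another feature of that library produced these values was not tested.

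By role, the first list held 10 known repressors of transposable elements or of their remnants. Of these 6 were lower, 1 was higher and 4 were called lower, and the median was -0.90. Over all genes 32.6% were lower and 14.3% called lower (median -0.00), and over all tested members 40.4% and 20.9%. Beside ZNF91, ZNF93 and ZNF486, the call included ZNF808, which silences MER11 elements, with 22.1, 28 and 18.9 CPM in WT-1 to WT-3, 1.28, 0.956 and 1.63 in CS16 and 2.14, 2.3 and 2 in CS19 (-3.73 ± 0.26 SE, adjusted p = 1.99e-07). ZNF611, reported to bind SVA elements, had 26.9, 44.9 and 24.8 CPM in WT-1 to WT-3, 12.7, 10.6 and 14.7 in CS16 and 13.7, 14.9 and 13.9 in CS19 (-1.26 ± 0.20 SE, adjusted p = 0.000175). Only ZNF649 of this list rose, with 11, 9.78 and 10.2 CPM in WT-1 to WT-3, 15.9, 15.1 and 17.1 in CS16 and 21, 22.8 and 22 in CS19 (0.88 ± 0.19 SE, adjusted p = 0.00153). ZNF180 fell by 0.54 on the log2 scale but did not pass without WT-1, WT-3, CS16-1 or CS16-2 (largest adjusted p = 0.115), and ZNF675, ZNF432 and ZNF765 did not pass the test.

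ZNF274, which brings SETDB1 to the ends of other zinc finger genes, had 72.7, 85.8 and 81.4 CPM in WT-1 to WT-3, 29.3, 28.7 and 27 in CS16 and 38.8, 39.8 and 43.3 in CS19. It was lower in the clones (-1.21 ± 0.17 SE, adjusted p = 8.34e-05), and the levels of the 2 clones did not overlap either. The imprinted gene ZNF331 had 27.4, 24.5 and 23.3 CPM in WT-1 to WT-3, 8.59, 6.12 and 9.68 in CS16 and 10.5, 12.2 and 10.0 in CS19 (-1.40 ± 0.20 SE, adjusted p = 7.27e-05). ZNF568, whose mouse counterpart silences a placental transcript of Igf2, had 10.1 ± 1.89 CPM in WT (SD, n = 3), 11.8 ± 1.47 in CS16 and 17.7 ± 2.66 in CS19 and did not pass the test (0.55 ± 0.24 SE, adjusted p = 0.0608).

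Of 11 genes listed for promoter methylation in tumours, 10 were found by symbol and 7 could be tested, and 4 were called lower (ZNF542P, ZNF671, ZNF154 and ZNF132) and 2 higher (ZNF382 and ZNF582), with a median of -2.52, against 14.3% of all genes called lower and 12.6% called higher. The calls of ZNF154 and ZNF582 missed the fold cut-off without WT-2. ZNF132 had 9.74, 19.5 and 9 CPM in WT-1 to WT-3, 1.77, 2.01 and 2.75 in CS16 and 2.19, 2.26 and 2.3 in CS19 (-2.52 ± 0.26 SE, adjusted p = 5.15e-06). ZNF154 had 2.97, 11 and 1.34 CPM in WT-1 to WT-3, 0.933, 0.812 and 0.837 in CS16 and 0.911, 0.434 and 1.15 in CS19, and its log2 fold change of -2.57 was -1.34 (adjusted p = 0.00651) without WT-2. ZNF569 did not pass the test. ZNF677 had 0 counts in all 9 libraries, and ZNF667 and ZNF471 were too low to test.

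Among 10 other described regulators, 7 were lower and 1 higher, with 2 called lower (median -0.86). That share of calls, 20%, is near the 20.9% of all tested members and the 14.3% of all genes. The calls were ZNF43 and ZNF85. ZNF175, which is known to repress the HIV promoter, had 65.7, 64.7 and 60.9 CPM in WT-1 to WT-3, 19.2, 17 and 18.5 in CS16 and 20.5, 23 and 21.4 in CS19 (-1.68 ± 0.13 SE, adjusted p = 6.27e-07). ZNF350, a partner of BRCA1, had 16.2, 9.32 and 15.5 CPM in WT-1 to WT-3, 8.69, 6.4 and 8.49 in CS16 and 9.43, 11.9 and 10.2 in CS19 (-0.57 ± 0.23 SE, adjusted p = 0.0456), and leaving out WT-1, WT-3 or single clone libraries ended that result (largest adjusted p = 0.177). ZNF653 and ZNF444 had log2 fold changes of -1.14 and -1.19, both with WT-2 as the highest WT library. Without it ZNF653 was at -0.40 (adjusted p = 0.133) and ZNF444 turned to 0.19 (adjusted p = 0.245). ZNF585B was lower (-0.56 on the log2 scale), and ZNF45 and ZNF224 did not pass the test.

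None of the listed cofactors on which KRAB proteins depend was called, where 26.9% of all genes tested were. Of 23 listed, 7 were higher and 5 lower, with a median of 0.01, and the 12 together compare with 63.7% of all genes past the same threshold. TRIM28, the scaffold of the complex, had 562.9 ± 253.6 CPM in WT (SD, n = 3), 511.9 ± 28.6 in CS16 and 456.1 ± 19.4 in CS19. It did not pass the test (-0.22 ± 0.22 SE, adjusted p = 0.408). Its counts were 7984, 14938 and 8548 in WT-1 to WT-3, so the WT mean, and with it the negative sign, rested on WT-2. SETDB1, its histone methyltransferase, was higher in the clones (0.64 ± 0.13 SE, adjusted p = 0.00123), and so was the deacetylase HDAC1 (1.03 ± 0.15 SE, adjusted p = 0.000106). The others that were higher were HDAC2, PPHLN1, TASOR, CHD4 and TRIM24. Lower were MPHOSPH8, of the HUSH complex, at -0.86, the maintenance methyltransferase DNMT1 at -0.82 and its partner UHRF1 at -0.70, ATF7IP, the partner of SETDB1, at -0.56 and CHD3 at -0.48 on the log2 scale. In DNMT1, UHRF1 and CHD3, WT-2 was the highest WT library (for DNMT1 13782 counts, against 7588 and 7540). None of these passed in either clone alone (adjusted p = 0.0643 to 0.339). MPHOSPH8 passed in CS19 (-1.38) but not in CS16 (-0.43, adjusted p = 0.0927), and the clones differed (0.95, adjusted p = 1.37e-06). Against WT, 5 of the 23 were higher and 1 lower in CS16, and 6 and 2 in CS19.

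The members with the highest levels per length of transcript (RPKM, CPM per kilobase of exon) were ordered by their mean over the groups. ZNF146, built of zinc fingers without KRAB, led with 45.3 ± 16.5 RPKM in WT (SD, n = 3), 80.9 ± 3.27 in CS16 and 71.5 ± 3.81 in CS19. It was higher in the clones (0.75 ± 0.22 SE, adjusted p = 0.0106). ZNF121 followed, with 17.2 ± 4.37, 22.4 ± 1.13 and 20.2 ± 0.552 RPKM, and did not pass the test (0.31 ± 0.17 SE, adjusted p = 0.125). Next by the mean over groups were ZNF317, ZNF460, ZNF581, ZNF302, ZNF45, ZNF266, ZNF480 and ZNF584, with WT means of 6.99 to 15.5 RPKM. ZNF146 stood above ZNF121 by more than their SDs in every group, and ZNF480 and ZNF584 also differed by more than that in each group, in opposite directions. The other neighbours in this order lay within 1 SD of each other in at least 1 group. None of these 10 was called in either direction, and the farthest was ZNF584, with 34.6, 64.6 and 38.3 CPM in WT-1 to WT-3, 22.9, 22.5 and 23.4 in CS16 and 18.4, 19.9 and 19 in CS19 (-1.13 ± 0.20 SE, adjusted p = 0.000357). ZNF460, ZNF266 and ZNF581 passed the test at -0.54, -0.35 and 0.67 but ZNF460 did not without WT-2, ZNF581 did not without WT-1 or WT-3, and ZNF266 did not without WT-1, WT-3 or several of the clone libraries in turn.

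CS16 and CS19 were then compared directly, to see whether the clones differ from each other. Of 204 members tested, 82 were lower in CS16 and 6 higher, where 12.7% of all 17538 genes were lower and 14.7% higher. The median log2 difference (CS16 minus CS19) was -0.26, against -0.02 over all genes, -0.02 over 920 other genes of chromosome 19 (94 lower, 97 higher) and -0.13 over 239 ZNF-numbered genes of other chromosomes (54 lower, 16 higher). The differences were small: calls with a log2 difference of at least 2 numbered 2 lower and 4 higher (background 0.496% and 0.633%). In 107 members all CS16 libraries lay below all CS19 libraries and in 11 above, with backgrounds of 20.1% and 20.4%.

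The number of members that passed depended on the fit used. Leaving out each library in turn gave 55 to 77 lower, and a fit of all 3 groups together gave 12 lower and 4 higher. The same joint fit without WT-2 gave 72 lower and 7 higher, of which 77 in either direction were among the 88 found from the 2 clones alone. WT libraries are not part of the contrast between the clones. In the joint fits they enter its spread, and also the scaling and the choice of genes tested.

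Most of the lower members stood on the long arm. In 19q13, 69 of 151 tested members were lower in CS16 and 2 higher (median -0.35), beside 48 lower and 50 higher of 462 other genes there (-0.05). By band, 25 of 47 were lower in q13.43, 16 of 23 in q13.31, 15 of 27 in q13.12 and 10 of 27 in q13.41, but 0 of 13 in q13.42. In 19p12, 3 of 16 were lower and 3 higher. Neighbours ran together here too: 10 members from ZNF772 to ZNF551 (chr19:57466663-57717301) and 8 from ZNF45 to ZNF224 (chr19:43912624-44109886) were each lower in CS16, though leaving out single clone libraries ended the result for ZNF773 and ZNF550 in the first run and for ZNF45, ZNF223 and ZNF224 in the second. Over all members, 33 of the 88 lost it in at least 1 such fit.

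In the first of these runs, ZNF772 had 33.6, 20.5 and 31.7 CPM in WT-1 to WT-3, 18.2, 15.6 and 15.2 in CS16 and 33.7, 31.4 and 32 in CS19, a difference of -0.99 ± 0.09 (SE, adjusted p = 5.07e-06). ZNF134 had 48.2, 42.7 and 45.3 CPM in WT-1 to WT-3, 21.7, 23.1 and 24.4 in CS16 and 34.9, 37.9 and 35.5 in CS19 (-0.65 ± 0.08 SE, adjusted p = 5e-05), and ZNF530 had 20.5, 23.6 and 26.7 CPM in WT-1 to WT-3, 9.03, 11.9 and 10.2 in CS16 and 17.1, 18.3 and 20.7 in CS19 (-0.85 ± 0.11 SE, adjusted p = 0.000103). In all 3 genes CS19 lay nearer to WT-1 and WT-3 than CS16 did. ZNF528, in q13.41, had 42.6, 29.6 and 41.1 CPM in WT-1 to WT-3, 0.393, 0.573 and 0.558 in CS16 and 2.55, 2.61 and 2.89 in CS19, so both clones were far below WT and CS16 was below CS19 (-2.39 ± 0.26 SE, adjusted p = 1.74e-05).

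Some genes that rose in both clones rose less in CS16. The difference was -0.76 ± 0.09 (SE, adjusted p = 3.32e-05) for ZNF382, -0.87 ± 0.13 (SE, adjusted p = 0.000303) for ZNF793, -1.45 ± 0.20 (SE, adjusted p = 0.00015) for ZNF285 and -2.02 ± 0.29 (SE, adjusted p = 0.000187) for ZNF229. For ZNF536 it was -0.06 ± 0.09 (SE, adjusted p = 0.662), a difference that was not detected with this spread.

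The 4 members called higher in CS16 were all genes that fell in both clones but further in CS19. ZNF85 had 18.1, 12.7 and 19.1 CPM in WT-1 to WT-3, 0.687, 0.621 and 0.877 in CS16 and 0 in each CS19 library, at least 18.6-fold higher in CS16 than in CS19 (49 counts against 0). ZNF726 had 3.41, 2.63 and 3.7 CPM in WT-1 to WT-3, 1.08, 0.573 and 0.558 in CS16 and 0 in each CS19 library, at least 18.2-fold higher. ZNF737, the third of them from 19p12, had 17.5, 8.29 and 16.7 CPM in WT-1 to WT-3, 1.18, 1.19 and 1.39 in CS16 and 0.273, 0.304 and 0.328 in CS19 (2.03 ± 0.33 SE, adjusted p = 0.000436). ZNF563, in 19p13.2, had 4.84, 3.66 and 5.45 CPM in WT-1 to WT-3, 1.47, 1.24 and 1.2 in CS16 and 0.0911, 0.434 and 0.197 in CS19 (2.41 ± 0.42 SE, adjusted p = 0.000789). The pseudogene ZNF807P also had more than 3 counts in each CS16 library and none above 3 in CS19, but its ratio was 2.15-fold (95% counting interval 0.906 to 5.47). ZNF587B was the next in this direction, at a log2 difference of 0.42 ± 0.08 (SE, adjusted p = 0.00139).

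Counting rules bear on these values, because the genes resemble each other. Read pairs needed a mapping quality of 30, so pairs that fit several near-identical copies were dropped, and a member's count covers only its distinguishable part. Strand was not used, and 195 of the 263 members overlap another annotated gene, though 11 had at least 50% of their exon bases overlapped and the median share was 2.42%. Among the 61 tested members without any overlap, 9 were called and all 9 were lower. That share is near the 14.3% of all genes called lower and under the 20.9% of all tested members. None was called higher, against 12.6% of all genes. The other 49 calls were in members that overlap another gene.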

How the data were processed

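Read pairs of 9 libraries were trimmed (Trimmomatic 0.36), aligned to GRCh38 (STAR 2.7.2b) and counted per gene by the authors with featureCounts (Subread 2.0.0) on gencode release 38, keeping a mapping quality of at least 30 and ignoring strand. The deposited values are these raw counts.

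Gene identifiers were matched to symbols in gencode release 44 (60507 of 60708). Bands follow the limits of the GRCh38 ideogram, entered by hand to the nearest 0.1 Mb, and a gene was placed by its midpoint. Counts were scaled by TMM and tested with edgeR 4.0.16 (R 4.3.3, filterByExpr, glmQLFit and glmQLFTest), with adjustment over all genes. Each comparison was fitted on its own libraries. A call needs an adjusted p below 0.05 and a log2 fold change of at least 2. The floor was 3 counts, per library for presence and summed over a group for fold bounds, and counting intervals are 95% intervals of the ratio of summed counts. The steps were tested on simulated data. Promoters are RefSeq windows on GRCh38.p14.

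Named genes were the smallest adjusted p in each direction, members at the floor in 1 group only, the highest RPKM, the role lists and the largest calls or end members of each band. The members of the set and all lists were chosen with earlier results of these data known. Alternatives were DESeq2 1.42.0, other scalings, filters and thresholds, a replicate block, a joint fit, leaving out overlapping members and leaving out each library. Numbers of changed members under each setting, and the joint fit without WT-2, were added after the data were seen. Members without an entry in the promoter table were left out of the sequence counts.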

Additional observations from a re-analysis of the deposited data

Results flagged for a closer look

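Of the named members, 25 differed between the clones, by the test of CS16 against CS19 itself (edgeR, adjusted p below 0.05). Some of them were named because they passed this same test, so their number does not measure how often members differ. The share that passed was 43.1% over all tested members and 27.4% over all genes. All values are log2 differences, CS16 minus CS19. For 7 of them the result was lost on leaving out single clone libraries, in 5 of 6 such fits for ZNF808, ZNF350 and ZNF569, in 4 for ZNF773, ZNF45 and ZNF584 and in 2 for ZNF224 (largest adjusted p = 0.146). Among members called higher in SNAI1-KO, the difference was -2.02 for ZNF229, -1.45 for ZNF285, -1.05 for ZNF582, -0.87 for ZNF793, -0.76 for ZNF382 and -0.37 for ZNF773. Among members that fell in both clones, ZNF528 differed by -2.39 and ZNF808 by -0.72, while ZNF563 differed by 2.41 and ZNF737 by 2.03. The fitted values of ZNF85 (7.13) and ZNF726 (7.12) depend on the small count added to a group at 0 and are no measure of size.

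In q13.43 the differences were -0.99 for ZNF772, -0.85 for ZNF530, -0.65 for ZNF134, -0.53 for ZNF274, 0.26 for ZNF584 and 0.42 for ZNF587B. Along the rest of 19q13 they were -0.58 for ZNF568, -0.46 for ZNF649, -0.42 for ZNF350, -0.37 for ZNF180, -0.36 for ZNF224, -0.31 for ZNF569 and -0.27 for ZNF45. In ZNF581, CS16-2 had 25.7 CPM and stood apart from the other 5 clone libraries by Dixon's criterion, which chance meets in about 1 of 20 groups.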

How the results depend on the processing

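Calls in SNAI1-KO, CS16 and CS19 against WT and in CS16 against CS19 (58, 56, 55 and 6) became 91, 87, 86 and 10 when a log2 change of 1 sufficed, and 9, 9, 8 and 2 when members that overlap another gene were left out, which removes most members. With no fold cut-off the lower members numbered 95, 95, 72 and 82 and the higher ones 46, 27, 40 and 6. Leaving out 1 library gave 55 to 60, 52 to 57, 54 to 59 and 4 to 6 calls. Changed members then numbered 131 to 152, 87 to 173, 90 to 165 and 60 to 85. The joint fit moved the 88 members that differed between the clones to 16, and the same fit without WT-2, chosen after seeing the data, gave 79. Log2 fold changes of ZNF444 ran from -1.58 to 0.19 over the libraries left out, and its sign reversed without WT-2. Of the log2 fold changes of named members with 1 library left out, 633 kept their direction and side of the threshold, 33 no longer passed, 5 newly passed and 1 reversed. With the replicate number as a block the calls were 56, 54, 54 and 6 and the changed members 128, 96, 101 and 61. Same-numbered libraries deviated together with correlations of -0.206 to 0.190, so the numbers do not pair the samples. Genes near 3 counts per library were below what this depth resolves.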
